A study of Xenopus tropicalis with 12 samples.

Results

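The binding of thyroid hormone receptor (TR) to chromatin was compared here between wild-type and TRα (-/-) hind limb after thyroid hormone (T3) treatment, over 6 of the 12 ChIP-seq libraries of the series. Overlapping peaks of these 6 libraries (1 bp or more in common) were joined into 148324 regions. A region was kept if 2 or more of the 3 libraries of either genotype had a peak in it, and 17409 regions met this rule. The 6 libraries held 207665 of the 329457 peaks of the series.

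All groups were hind limbs of Xenopus tropicalis tadpoles at stage 54, and the sample labels give wild-type and TRα (-/-) tadpoles the same parents. The groups compared were wild type with T3 and TRα knockout with T3, both given T3 at 10 nM over 18 h. The untreated groups of both genotypes served as libraries that the rule for choosing regions had not used. Each group was chromatin pooled from several tadpoles, immunoprecipitated with an antibody against TR and sequenced as 3 technical replicate libraries. The spread between libraries is therefore technical, and every p-value below measures that spread and not the variation between tadpoles. The knockout lacks TRα in every tissue, and its TRβ gene is intact.

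TRs are nuclear receptors that sit on DNA with a retinoid X receptor partner. They hold T3-responsive genes down without hormone and activate them when T3 binds. Frogs have a TRα and a TRβ gene, TRα is the main receptor of the tadpole limb before metamorphosis, and the TRβ gene is itself switched on by T3, so binding that remains in TRα (-/-) tissue is usually ascribed to TRβ. The comparison asks where TR binding after T3 differs in the absence of TRα.

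The libraries of the same number had close depth. Wild type with T3 held 1055706, 1825401 and 2307377 fragments after filtering in replicates 1, 2 and 3, and TRα (-/-) with T3 held 940383, 1832197 and 2851627, so that depth in wild type was 1.12, 0.996 and 0.809 times that in TRα (-/-). Fragments were longer in TRα (-/-), with 180, 205 and 224 bp against 154, 180 and 191 bp. Lists were shorter in TRα (-/-), with 25461 to 38371 peaks against 32984 to 42421. Among the untreated libraries, replicate 2 of TRα (-/-) stood apart, with 4645 peaks against 19088 to 29582 in the other 5.

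Nearly equal numbers of regions were bound in both genotypes and in 1 genotype. Of the 17409 regions, 8320 (47.8%) had a peak in 2 or more libraries of each genotype, 5111 reached 2 libraries only in wild type and 3978 only in TRα (-/-). The difference between the classes was often a single library. A peak in 1 TRα (-/-) library was present at 2662 (52.1%) of the wild-type-only regions, and a peak in 1 wild-type library at 2204 (55.4%) of the TRα (-/-)-only regions. Just inside the rule lay 2194 regions with a peak in 2 wild-type and no TRα (-/-) libraries and 1624 regions the other way round. Just outside lay 72902 and 52202 regions with a peak in 1 library, and 5811 with a peak in 1 library of each genotype.

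The strictest split was rare. Complete presence in wild type (3 of 3 libraries) with complete absence in TRα (-/-) (0 of 3) was found at 255 regions, 1.46% of those kept, and the opposite pattern at 150 regions, 0.862% of those kept. These made up 4.18% of the 6103 regions that were complete in wild type and 2.61% of the 5752 that were complete in TRα (-/-). In contrast, all 6 libraries had a peak at 3821 regions. Whether wild type or TRα (-/-) had more bound regions depended on the lists, since the ratio of 1.09 (13431 to 12298 regions) became 0.976 with every list reduced to its 25461 best peaks by q value. The number of regions exclusive to wild type was then 168 and that exclusive to TRα (-/-) 159.

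**Figure D1:**
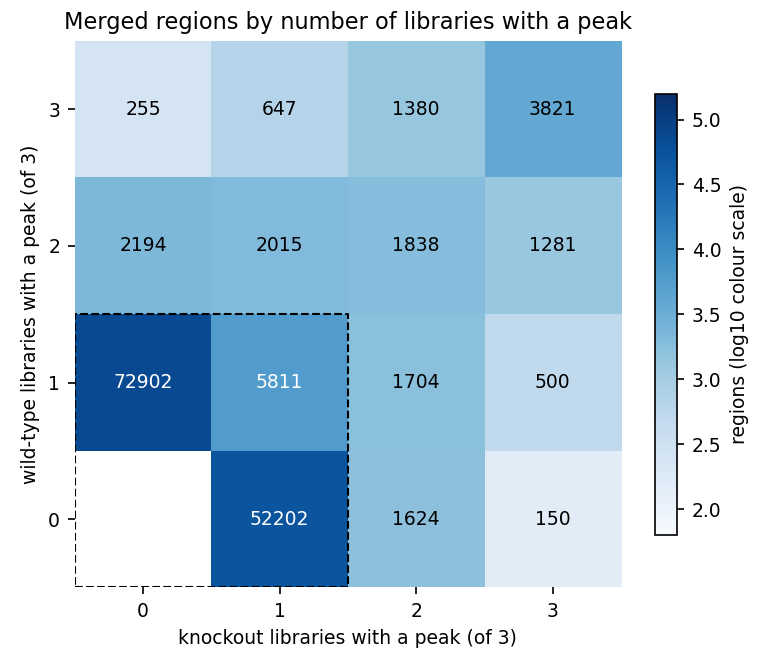
Number of merged regions by how many wild-type (vertical axis) and TRα (-/-) (horizontal axis) libraries with T3 had a peak, with darker blue for more regions on a log10 colour scale; regions inside the dashed line were not kept. Of the regions kept, those with a peak in all 6 libraries (3821) far outnumber those split by genotype (255 and 150).

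Regions of 1 genotype ranked lower in their lists than shared regions. The classes were set by how many libraries had a peak, which favours stronger peaks in the shared class. The ranks and lengths below are therefore a description and no test. Rank is given as a percentile within a library, with 100 for its strongest peak, so that lists of unequal depth can be set side by side. By fold enrichment, the ratio of the summit to its local background, shared regions had median percentiles of 88.2, 85.1 and 87.3 in wild type and 88.1, 83.2 and 80.7 in TRα (-/-). The wild-type-only regions lay at 65.8, 60.4 and 63.0 in the wild-type lists, and the TRα (-/-)-only regions at 66.1, 59.0 and 52.3 in the TRα (-/-) lists. By q value the order was the same, with 85.5 to 88.3 for shared regions and 60.3 to 63.9 for wild-type-only regions in wild type, and 81.8 to 88.3 for shared and 52.7 to 65.6 for TRα (-/-)-only regions in TRα (-/-). Merged lengths had a median of 908 bp for shared, 568 bp for wild-type-only and 616 bp for TRα (-/-)-only regions, but shared regions join peaks of more libraries. Within single wild-type libraries, median peak length was 508, 598 and 643 bp at shared and 299, 351 and 379 bp at wild-type-only regions. Within TRα (-/-) libraries it was 510.5, 604 and 678 bp at shared and 327, 386.5 and 429 bp at TRα (-/-)-only regions.

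Strong peaks were nearly always found in both genotypes. Of the 1000 strongest peaks of a library by q value, 97.3% were found again on average in another library of the same genotype and 96.5% in a library of the other genotype. The difference of 0.847 percentage points had p = 0.1 (exact two-sided permutation of the genotype labels), the smallest p that 3 libraries against 3 allow. It was 0.0667 points for the strongest 500 peaks (exact permutation test, p = 0.8), and 0.487 and 0.379 points without replicate 1 of wild type or of TRα (-/-) (p = 0.6 each in the same exact test). Direction by direction, 95.2% of strong wild-type peaks were found in TRα (-/-) libraries (range 92.5 to 97.4% over 9 pairs of libraries) and 97.8% of strong TRα (-/-) peaks in wild-type libraries (94.2 to 99.3%). Among libraries of 1 genotype the share was 97.3% in wild type and 97.3% in TRα (-/-). Where the lowest q value percentile over the 3 wild-type libraries was 95 or more (975 regions), 915 regions (93.8%) were found in all 3 TRα (-/-) libraries and 3 in none. For TRα (-/-), 783 of 798 such regions (98.1%) were found in each wild-type library and 0 in none. The lists searched were longer in wild type, with 32984 to 42421 peaks against 25461 to 38371. The part of list length in this asymmetry was not tested. Peaks in the lower 50 percentiles were rarely found anywhere else, with 6.86% ± 2.17 (SD, n = 3) of wild-type peaks in another wild-type library and 6.55% ± 2.25 in a TRα (-/-) library.

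Same-numbered pairs, which were close in depth, shared more regions in the deeper pairs. Of the kept regions with a peak in either library of a pair, 41.2% had a peak in both in pair 1, 52.7% in pair 2 and 59.9% in pair 3. Replicate 1 was the shallowest and replicate 3 the deepest in each genotype. The rule for keeping regions removes those seen in 1 library and so raises these shares. Over all regions of a pair, kept or not, the shares were 8.14, 16 and 19% in pairs 1, 2 and 3. Across the 3821 regions with a peak in all 6 libraries, the rank correlation of fold enrichment was 0.59, 0.687 and 0.731 in pairs 1, 2 and 3. It was 0.62 to 0.734 over the 6 pairs of libraries of 1 genotype. These correlations are over regions that share libraries, and are given as a description. Summits in 1 region lay a median of 75.3 bp apart on average between libraries of the same genotype and 73.8 bp apart between genotypes, at the 3038 regions with 1 peak in each library (exact permutation test, p = 0.4).

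The wild-type-exclusive regions with the best ranks were short and well above the lowest pileups of the lists. The pileup is the number of fragments over the summit. At chr5:146366184-146366387 (Xenbase v9.1, 1-based, as for all positions here) the summit pileups were 22, 38 and 36 fragments in the wild-type libraries 1, 2 and 3, and no TRα (-/-) library had a peak. At chr8:97780565-97780772 they were 15, 37 and 28. Both regions also had a peak in each untreated wild-type library (37, 41 and 64 fragments, and 51, 62 and 95 fragments) and in no untreated TRα (-/-) library. Both are short, 204 and 208 bp, close to the fragment sizes of 154 to 191 bp.

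The next 3 by rank were weaker, and differed in the untreated libraries. At chr3:46875468-46875789 the wild-type libraries had 14, 15 and 16 fragments, and 1 untreated library had a peak (wild type replicate 3, 13 fragments). At chr5:4500897-4501259 they had 14, 15 and 22 fragments, and untreated peaks were found in wild-type replicates 2 and 3 and in TRα (-/-) replicate 1. At chr7:85789412-85789793 they had 10, 18 and 13 fragments, and none of the 6 untreated libraries had a peak. The first 2 of the 5 thus followed genotype in all 12 libraries, and the last was found with T3 alone.

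The TRα (-/-)-exclusive regions with the best ranks had lower pileups. At chr8:74956610-74957156 the TRα (-/-) libraries had 9, 10 and 24 fragments, and at chr7:2075074-2075933 they had 9, 10 and 37. At chr1:11493656-11494424 they had 6, 23 and 15 fragments, at chr2:25491468-25492200 they had 5, 10 and 16, and at chr4:564842-565416 they had 7, 10 and 14. At none of these 5 did all 3 untreated TRα (-/-) libraries have a peak. Replicate 2, with its short list of 4645 peaks, had no peak at any of them, so this count can say little. Untreated TRα (-/-) replicate 3 had a peak at all 5, and replicate 1 at all but chr8:74956610-74957156. Untreated wild-type libraries had a peak at 4 of the 5. The exception was chr1:11493656-11494424, with a peak in the untreated TRα (-/-) replicates 1 and 3 (3 and 6 fragments) and in no wild-type library of either treatment.

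**Figure D2:**
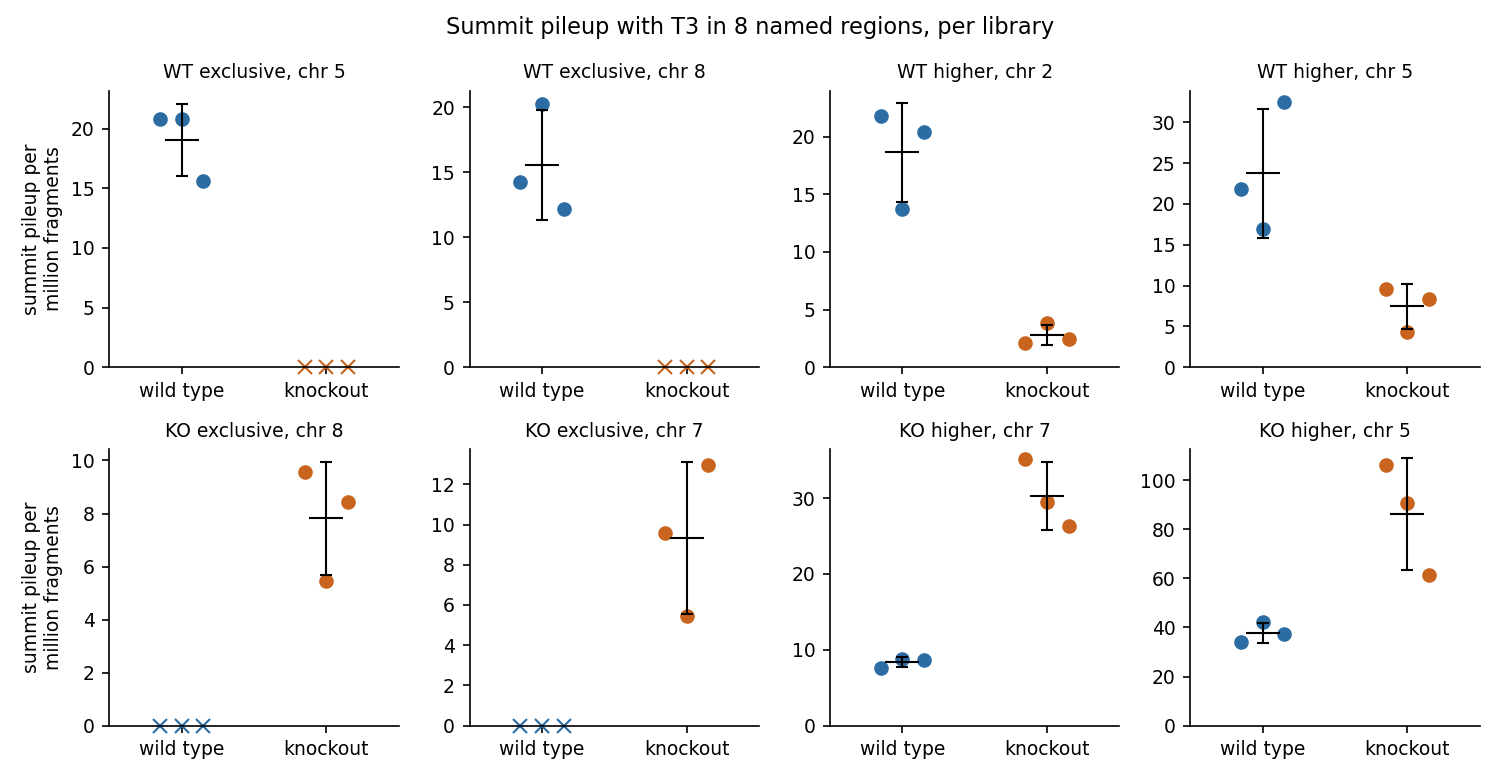
Summit pileup per 1000000 fragments in each T3-treated library (points; crosses on the axis mark libraries without a peak) at 8 named regions, with the mean and SD over 3 libraries as a black bar. The upper row shows regions exclusive to or higher in wild type and the lower row regions exclusive to or higher in TRα (-/-), and the vertical scale differs between panels.

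Exclusive regions were then looked up in the untreated libraries, which had no part in the rule that chose them. The classes and the test were, however, set with earlier results of these data known. A peak was found at 57.3, 59.6 and 57.6% of the 255 wild-type-exclusive regions in untreated wild-type libraries 1, 2 and 3, and at 23.5, 3.14 and 32.2% in untreated TRα (-/-) libraries. For the 150 TRα (-/-)-exclusive regions the shares were 41.3, 47.3 and 55.3% in wild type and 24.0, 3.33 and 46.0% in TRα (-/-). Both classes were thus seen more often in untreated wild type, whose libraries were deeper, with 3080104 to 6119057 fragments against 834029 to 3000220. The classes were therefore compared within each library, a comparison that still depends on the length of the list. The wild-type-exclusive share exceeded the TRα (-/-)-exclusive share by 10.2 percentage points ± 7.04 (SD, n = 3) in untreated wild type and fell short of it in untreated TRα (-/-), with a difference of -4.84 ± 7.80.

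The gap between the genotypes was 15.0 percentage points, and the 3 wild-type libraries (15.9, 12.3 and 2.31) were all above the 3 TRα (-/-) libraries (-0.471, -0.196 and -13.8). The exact two-sided permutation test gave p = 0.1, the smallest possible with 3 against 3. Without untreated TRα (-/-) replicate 2, whose list was short, the gap was 17.3 points. With every untreated list reduced to 4645 peaks it was 4.90 points, and the short list of replicate 2 leaves little room for a difference (3.14 and 3.33%). For the larger classes by the 2 of 3 rule (5111 and 3978 regions) it was 3.07 points (exact permutation test, p = 0.3).

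The number of exclusive regions that followed genotype in all 12 libraries was 43 of the 255 wild-type-exclusive regions (16.9%) and 0 of the 150 TRα (-/-)-exclusive regions. The same untreated pattern, 3 wild-type and 0 TRα (-/-) libraries, was also present at 5.93% of shared, 7.28% of wild-type-only and 5.51% of TRα (-/-)-only regions. The reverse untreated pattern was near 0 in each of these classes (0.0361, 0.0196 and 0.0503%), so the 0 of 150 does not set the TRα (-/-)-exclusive regions apart. Among the TRα (-/-)-exclusive regions, 6 (4%) were found in every untreated wild-type library and never in untreated TRα (-/-). The count for TRα (-/-) needs a peak in its shortest untreated list. The part that depth had in these counts was not tested.

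**Figure D3:**
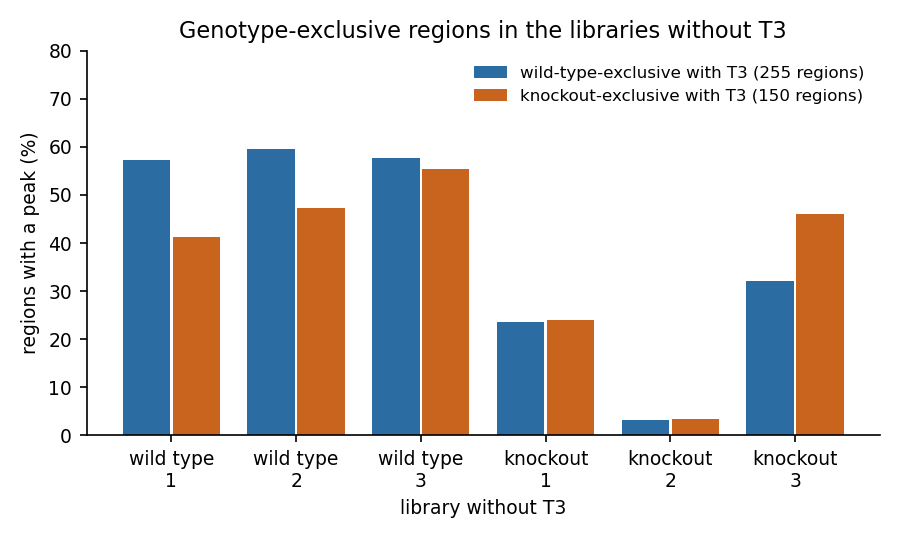
Share of the regions exclusive to wild type (blue, 255 regions) and to TRα (-/-) (orange, 150 regions) after T3 that had a peak in each of the 6 libraries without T3, in percent; each pair of bars is 1 library. Wild-type-exclusive regions lead in each wild-type library, whereas TRα (-/-)-exclusive regions lead in each TRα (-/-) library, by little in replicates 1 and 2.

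The strength of binding at the 3821 regions with a peak in all 6 libraries was tested next. On the within-library percentile of fold enrichment, limma called 0 regions, 0% of those tested, at an adjusted p below 0.05 (smallest adjusted p 0.79). At an unadjusted p below 0.05 there were 167 regions (4.37%), 129 of them higher in wild type. The wild-type values lay entirely above or below the TRα (-/-) values at 471 regions, 12.3% of those tested, 338 with wild type higher and 133 with TRα (-/-) higher. A percentile depends on the length of its list, and wild type had the longer list in each same-numbered pair. On quantile-normalized log2 fold enrichment, 120 regions were higher in wild type and 127 in TRα (-/-) at an unadjusted limma p below 0.05. The median difference there was 0.00112. On percentiles, the median difference over all regions was 0.965 points in favour of wild type, and the median SE of a difference was 7.27 points. In simulated data, shifts of 4, 8 and 16 within-group SDs were recovered at 28, 92 and 88% of the changed regions. The median within-group SD was 7.49 points. Library medians at these regions ran from 89.3 (TRα (-/-) replicate 3) to 93.1 (wild-type replicate 3), and the scale ends at 100. Upward shifts of such sizes thus have little room at a typical region. The recovery rates therefore do not tell which differences in rank 3 libraries a side could detect, and the 0 calls do not show equal ranks.

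Pileup showed differences that ranks did not. Pileup was scaled to depth as the summit pileup per 1000000 fragments of the library. The log2 of this scaled pileup differed between the genotypes at 43 regions, 1.13% of those tested (limma, adjusted p below 0.05). Of these, 20 were higher in wild type and 23 higher in TRα (-/-), and the values of the genotypes did not overlap at 42. Scaled pileup was higher in TRα (-/-) at most regions, with a median difference (wild type minus TRα (-/-)) of -0.124 on the log2 scale, and the longer fragments of TRα (-/-) moved with it. With each library centred on its own median the split of calls was 31 higher in wild type and 13 higher in TRα (-/-), and 33 of the 43 regions were called again. Without the mean-variance trend limma called 1 region. Leaving out single libraries gave 8 calls (without TRα (-/-) replicate 2) to 43, and 14 and 21 without wild-type replicates 3 and 2, while 6 of the 43 regions were called in each of the 6 reduced comparisons. The regions named from here on were chosen after their values were seen.

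**Figure D4:**
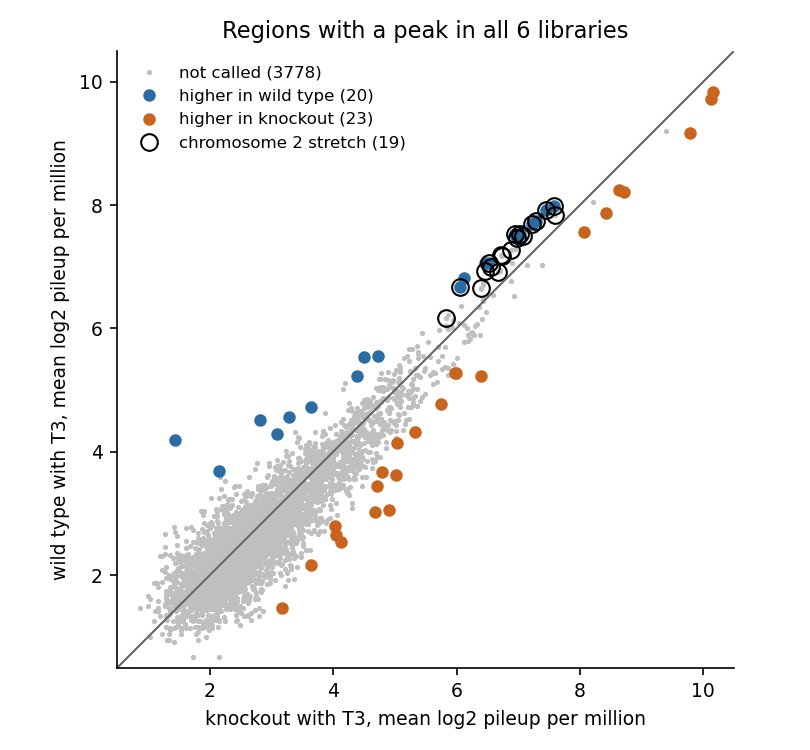
Mean log2 summit pileup per 1000000 fragments in TRα (-/-) (horizontal axis) and wild type (vertical axis) with T3 at the 3821 regions with a peak in all 6 libraries, with the line of equal values; coloured points are the 43 regions called by limma and circles mark 19 regions of a stretch of chromosome 2. The circled regions lie in a row above the line, and the regions with the highest pileups lie below it.

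The clearest region higher in wild type lay at chr2:1082744-1085649. It had summit pileups of 23, 25 and 47 fragments in wild-type libraries 1, 2 and 3 and of 2, 7 and 7 in TRα (-/-), or a scaled pileup of 18.6 ± 4.32 against 2.80 ± 0.898 (SD, n = 3 each). The groups were far apart, a 6.73-fold difference (log2 2.75, SE 0.38; limma adjusted p = 1.86e-05, and at most 0.00355 with any library left out). The untreated libraries showed the same split, with 43, 45 and 70 fragments in wild type and no peak in any TRα (-/-) library. It was the only 1 of the 20 wild-type-higher regions that stayed called in all 6 reduced comparisons.

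A pair of nearby regions on chromosome 5 was also higher in wild type. At chr5:145855397-145856541 the pileups were 23, 31 and 75 against 9, 8 and 24 (3.25-fold, log2 1.70, SE 0.32; limma adjusted p = 0.00211). At chr5:145932295-145933154 they were 13, 24 and 31 against 5, 5 and 17 (2.93-fold; adjusted p = 0.0197). Between them, chr5:145883191-145884889 went the other way, with 26, 55 and 63 fragments in wild type and 37, 98 and 211 in TRα (-/-) (1.97-fold higher in TRα (-/-); adjusted p = 0.00863). Neighbouring regions thus differed in opposite directions with T3. Without T3 the log2 difference (wild type minus TRα (-/-)) was 0.72 at the first of the pair, -0.26 at the second and -0.86 at the region between. With a library left out, the limma adjusted p rose to as much as 0.0724, 0.182 and 0.119 in the same order. Other wild-type-higher regions of more than 2-fold were chr6:130795636-130796265 (27, 39 and 56 against 8, 27 and 21), chr3:134734688-134735532 (25, 36 and 37 against 7, 16 and 27), chr8:117311591-117312200 (24, 54 and 64 against 12, 23 and 35) and chr4:7888946-7889799 (42, 98 and 109 against 17, 35 and 95). Each of these was called by limma with an adjusted p between 0.00875 and 0.0248.

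Of the other wild-type-higher calls, 9 lay in 1 stretch of chromosome 2. The stretch, chr2:102078068-102158784, spans 80717 bp and holds 19 of the regions tested (0.497% of 3821). It was picked by these 9 calls, so the values with T3 below describe the stretch and are no separate test of it. Scaled pileup was higher in wild type at all 19, with log2 differences of 0.24 to 0.61 (median 0.46), whereas wild type was higher at 39.3% of all regions tested. At each of the 19 regions the 3 wild-type values were above the 3 TRα (-/-) values, a pattern seen at 187 regions (4.89%) overall. Summed over the stretch, scaled pileup was 3072, 3112 and 3122 in wild type and 2436, 2211 and 2257 in TRα (-/-), which is 3102 ± 26.5 against 2301 ± 118.9 (SD, n = 3 each), a ratio of 1.35. The 3 libraries of each genotype were close to each other and the genotypes did not overlap.

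The ends of the stretch are those of the calls and not of the pattern. The 7 other regions tested within 1000000 bp on either side all lay close by, between 102069364 and 102162867, and scaled pileup was higher in wild type at all 7, by 0.20 to 0.44 on the log2 scale (median 0.27). Signal was high across the stretch. Its regions had median pileups of 169, 276 and 346 fragments in wild type and 125, 209 and 300 in TRα (-/-), against 7 to 20 over all regions tested. Their median fold enrichment over local background was nevertheless low, 3.39 to 4.06 in wild type and 2.98 to 3.34 in TRα (-/-), against 5.70 to 8.49 over all regions tested. The summits thus stood little above their own surroundings. By fold enrichment percentile, wild type was entirely above TRα (-/-) at 0 of the 19 regions. In the untreated libraries wild type was again higher at 19 of 19 regions, by 1.11 to 1.96 on the log2 scale (median 1.52), where wild type was higher at 39.1% of the 3102 regions that could be compared. What sequence or genes the stretch holds was not analysed here.

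**Figure D5:**
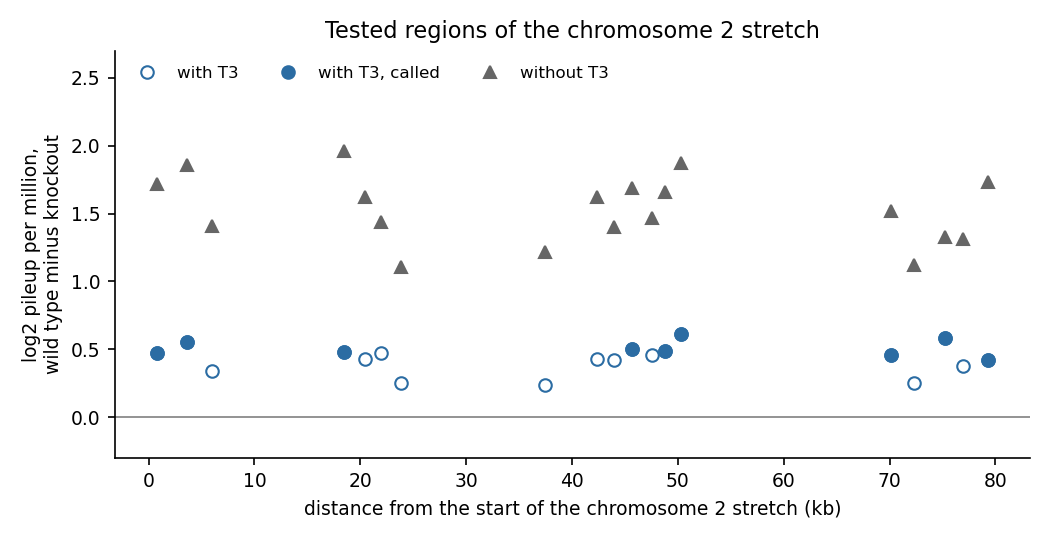
Difference in log2 summit pileup per 1000000 fragments (wild type minus TRα (-/-)) at the 19 tested regions of the chromosome 2 stretch, against distance from its start in kb, with T3 (circles, filled where called by limma) and without T3 (triangles). All points are above 0, and the differences without T3 (1.11 to 1.96) are above those with T3 (0.24 to 0.61).

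The TRα (-/-)-higher calls covered both weak and very strong regions. At chr7:663398-664217 the pileups were 8, 16 and 20 in wild type and 33, 54 and 75 in TRα (-/-), or a scaled pileup of 8.34 ± 0.659 against 30.3 ± 4.45 (SD, n = 3 each). The groups were well apart, 3.62-fold (log2 -1.85, SE 0.27; limma adjusted p = 3.2e-05). Without T3 the same region had a scaled pileup of 25, 14.8 and 15.4 in wild type and 16.9, 12 and 14.7 in TRα (-/-), so TRα (-/-) was higher with T3 and not without it. At chr5:90893583-90894223 the scaled pileup with T3 was 34.1, 42.2 and 37.3 in wild type and 106, 90.6 and 61.4 in TRα (-/-) (2.23-fold; limma adjusted p = 0.000161). Without T3 the order was opposite there, with 89.6, 57.8 and 40.0 in wild type against 19.4 and 22.7 in TRα (-/-) replicates 1 and 3 and no peak in replicate 2. The regions next in fold after chr7:663398-664217 kept the order of the genotypes without T3. Their untreated log2 differences (wild type minus TRα (-/-)) were -1.25 at chr3:133465319-133466766, -1.01 at chr7:7992428-7992870 and -1.99 at chr9:224565-225752. Of all 23 TRα (-/-)-higher regions, 14 were higher in TRα (-/-) without T3 and 9 in wild type. Whether these effects of genotype differ with treatment was not tested.

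Regions with the highest signal in all 6 libraries were among those with higher scaled pileup in TRα (-/-). At chr8:23529077-23530252, the strongest by q value rank, the pileups were 847, 1528 and 2018 in wild type and 1103, 1995 and 3116 in TRα (-/-), a scaled pileup of 838 ± 36.1 against 1120 ± 47.5 (SD, n = 3 each; limma adjusted p = 1.86e-05). At chr10:16969893-16970788 they were 527, 1145 and 1400 against 681, 1802 and 2698 (1.53-fold; adjusted p = 1.86e-05). At chr5:35928559-35930445 they were 935, 1752 and 2033 against 1126, 2161 and 3023 (1.26-fold; adjusted p = 0.0011, and 0.0572 with libraries centred on their medians). These differences are modest next to those of the weaker regions. Set against the median shift of -0.124, the log2 differences of the 3 regions were -0.29, -0.49 and -0.21. In the untreated libraries the first and the last of these had higher scaled pileup in wild type, by 0.54 and 0.42 on the log2 scale, and the chromosome 10 region differed by -0.08. With T3, fold enrichment at the chromosome 8 and chromosome 5 regions was lower in TRα (-/-) in each same-numbered pair. It was 35, 32.1 and 31.1 in wild type against 33.4, 29 and 27.5 on chromosome 8. On chromosome 5 it was 17.8, 16.4 and 15.8 against 16.1, 14.7 and 14. The chromosome 10 region had 19.7, 20.4 and 18.3 in wild type against 20.6, 20.7 and 19.

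Taken as sets, the calls differed in what the untreated libraries showed. Of the 20 wild-type-higher regions, 18 could be compared there (a peak in 2 or more libraries of each genotype), and 17 of these (94.4%) were again higher in wild type, with a median log2 difference of 1.37. Of the 23 TRα (-/-)-higher regions, all 23 could be compared, and 14 were higher in TRα (-/-) and 9 in wild type. Wild type was thus higher at 39.1%, the same share as over all regions tested. The set was mixed, with a median log2 difference of -0.38 and a range of -1.99 to 1.5. Of the 23 differences, 12 lay below the median over all regions tested and 11 above it. The low end was the weak region chr9:224565-225752, while the strong region chr8:23529077-23530252 had 0.54. Of the 17 regions again higher in wild type, 9 are neighbours in the chromosome 2 stretch and are not independent. Their log2 differences without T3 were 1.33 to 1.96. The wild-type-higher regions compared outside the stretch had -0.26 to 1.42, so the median of 1.37 depends on the stretch. The median over all regions tested was -0.18 without T3.

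Peaks tended to be longer in TRα (-/-) over the whole lists, by an amount that 3 libraries a side did not resolve. The difference was smaller at regions with a peak in all 6 libraries, and changed sign there with the fragment size subtracted. None of these comparisons shows that lengths were equal. Median peak length was 206, 267 and 281 bp in wild type and 238, 311 and 382 bp in TRα (-/-), a difference of 59 bp (exact permutation test, p = 0.3). Without TRα (-/-) replicate 3 the difference was 23.2 bp, without wild-type replicate 1 it was 36.3 bp, without TRα (-/-) replicate 1 it was 95.2 bp, and with equal list sizes it was 27.3 bp. The shortest peak of each list was as long as the fragment size of its library, and with the fragment size subtracted the medians were 52, 87 and 90 bp against 58, 106 and 158 bp (exact permutation test, p = 0.4). At the regions with a peak in all 6 libraries the medians were 599, 714 and 759 bp in wild type and 588, 711 and 799 bp in TRα (-/-), a difference of 8.67 bp (exact permutation test, p = 1). With the fragment size subtracted they were 445, 534 and 568 bp against 408, 506 and 575 bp. This difference (TRα (-/-) minus wild type) was -19.3 bp (exact permutation test, p = 0.8).

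The chromosomes carried similar shares of peaks in the genotypes. Chromosome 1 held 14.1% ± 0.468 of wild-type peaks and 13.9% ± 0.567 of TRα (-/-) peaks (SD, n = 3 each), and the smallest share was that of chromosome 10, with 4.71% ± 0.404 and 5.03% ± 0.768. Over the 10 chromosomes, the smallest unadjusted p of an exact permutation test was 0.3. The smallest p possible in this test is 0.1, so it could call no chromosome at 0.05 and does not show equal shares. The share of kept regions bound in both genotypes ran from 45.3% on chromosome 4 to 50.5% on chromosome 2. Chromosome 3 took 11.2% of the TRα (-/-)-only regions against 9.61% of the wild-type-only and 9.36% of the shared regions.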

How the data were processed

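TR ChIP-seq of 12 libraries was analyzed as deposited peak lists. The authors aligned reads with Bowtie2 (2.3.4.1) to Xenbase v9.1, removed redundant reads and called peaks per library with MACS2 (2.1.1.20160309), without a control, at a q value of 0.05. The deposited values are peak position and length, the pileup at the summit (an unnormalized signal, in fragments), −log10 of p and q values, and fold enrichment, a ratio to local background. The authors' headers give fragments after filtering (depth) and fragment size. Absence of a peak means only that none was detected at a library's depth.

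Regions were built in Python 3.11.15 with scipy 1.17.1, pandas 2.3.3 and numpy 2.4.6. A region takes the highest peak of each library. Tests were limma 3.58.1 (R 4.3.3; eBayes with trend, Benjamini-Hochberg adjustment) and exact permutation, two-sided. Percentiles were the main measure in limma, and log2 pileup per 1000000 fragments an alternative. Regions were named by rank (5 exclusive per genotype, 3 in all 6 libraries) or, for pileup, after seeing values. A stretch joined called regions of 1 direction less than 50000 bp apart, 3 or more. Merging, limma and permutation were tested on simulated data. Members, classes and tests were chosen with earlier results of these data known, those on regions exclusive to wild type in all 12 libraries included. Genes were not assigned and no sequence is shown, because no annotation or genome of v9.1 was used here.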

Additional observations from a re-analysis of the deposited data

Results flagged for a closer look

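Regions exclusive to 1 genotype after T3 behaved differently in the untreated libraries of the genotypes. The share of wild-type-exclusive regions with a peak minus that of TRα (-/-)-exclusive regions was 15.0 percentage points higher in untreated wild type than in untreated TRα (-/-), and all 3 wild-type libraries were above all 3 TRα (-/-) libraries (exact two-sided permutation test, p = 0.1, the smallest that 3 against 3 allow). Depth and list length differed between the untreated genotypes, and their part in this gap was not tested beyond the value of 4.90 points at equal list length. The gap was smaller without untreated TRα (-/-) replicate 3, from which most of the negative TRα (-/-) mean came.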

How the results depend on the processing

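The share of kept regions bound in both genotypes (47.8%) was 36.9% with 50% of a region required to be covered and 12.8% with 1 library sufficient, and 37.0 to 47.8% with replicates left out. The ratio of bound regions (1.09) was 0.976 with equal list sizes and 0.616 to 1.92 with replicates left out. A single library left out leaves the other genotype with more libraries, so that ratio is no test of the order. The 255 wild-type-exclusive regions became 163 and 118 at q below 0.01 and 0.001, 135 at a fold enrichment of 4, 169 with 50% covered, 168 with equal list sizes and 351 to 1437 with replicates left out. The 150 TRα (-/-)-exclusive regions became 93 at q below 0.001, 95 at a fold enrichment of 4 and 232 to 1066 with replicates left out. Fewer libraries make an absence easier to reach. The 0 calls on percentiles became 43 on log2 pileup per 1000000 fragments and stayed at 0 in the other settings, with 89 to 310 regions at an unadjusted p below 0.05 when a library was left out. The 43 calls became 20 with quantile normalization, 1 without trend, and 8 to 43 with a library left out. The settings of the pileup comparison, the subtraction of fragment size and the untreated look-up by the 2 of 3 rule were chosen after seeing the data.

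Deviations of same-numbered libraries in fold enrichment percentile correlated at 0.15, 0.0484 and 0.102. Between libraries of different number the correlations were lower, -0.127 to 0.045. By q value percentile they were 0.00519, 0.0402 and 0.00969 for the same number and -0.0226 to 0.0123 otherwise. These correlations are weak and do not settle whether the numbers pair the samples, so the main tests left them unpaired. With the replicate block, limma called 0 regions on percentiles and 73 on pileup (all 43 among them), and the mean share bound in both was 51.3%. The differences of 59 bp in peak length and 15.0 points in the untreated libraries had p = 0.25 each (exact sign-flip test over pairs). The 0.847 points in strong peaks found again had p = 0.25 (exact permutation of genotype labels within same-numbered pairs). In both tests this is the smallest p that 3 pairs allow.

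Depth of 940383 to 2851627 fragments limits the weak regions: medians of 3 fragments at regions of 1 genotype in replicate 1 leave presence there near the detection limit. The causes of these changes were not tested.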
